A study of Mus musculus with 6 samples.

Results

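The nuclear genes of respiratory complex I were followed in brown fat of mice held in the cold and of control mice. All protein-coding genes whose symbol begins with Nduf in the GENCODE M21 annotation were taken, which gave 46 genes among the 8129 genes with reads. They comprise 36 subunits of the complex, 8 assembly factors named Ndufaf, and Ndufa4 with its relative Ndufa4l2. Every one of the 46 had at least 1 read, and 42 passed the filter on low counts and were tested. Genes entered the set by symbol alone, and the set itself was chosen with earlier results of these data known.

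The study sequenced full-length cDNA of poly(A) RNA on nanopore flow cells. The tissue was interscapular brown fat, the heat-producing depot between the shoulder blades, of male wild type C57BL/6N mice aged 20 weeks. The cold group was 3 mice kept alone at 4 °C for 24 h, numbered 4, 11 and 15. The control group was 3 mice, numbered 2, 9 and 14, for which only the general husbandry range of 22 to 24 °C is given. The cold treatment is written on the records of all 6 samples, so each sample's group comes from its title. Whether the control mice were also kept alone is not stated, and single housing and cold cannot be told apart. The extraction protocol speaks of eWAT, a depot of white fat, whereas the tissue label gives interscapular brown fat. Each mouse gave 1 library, run on 2 flow cells.

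Complex I, or NADH:ubiquinone oxidoreductase, is the large L-shaped enzyme through which electrons from NADH enter the respiratory chain. Its matrix arm carries the flavin and the iron-sulfur clusters that pass electrons to ubiquinone, and its membrane arm pumps protons. The catalytic core is built partly from nuclear genes and partly from genes of mitochondrial DNA, and accessory subunits surround it. Assembly factors bring the modules together and do not stay in the finished enzyme. Brown fat is rich in mitochondria and in respiratory enzymes, and its uncoupling protein turns the proton gradient into heat.

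Control libraries held 1014812 to 1849351 reads on genes and cold libraries 2922939 to 2982630, so every cold library was the deeper, and in raw counts an effect of depth cannot be told apart from one of group. A floor of 3 reads stood at 1.01 to 2.96 CPM. CPM here is the normalised read count after TMM scaling in edgeR, a method that aligns the libraries on the bulk of their genes. Brown adipocyte markers summed to 14467 to 19651 CPM in control and 16318 to 18321 CPM in cold libraries. Of the 8 tested, Elovl3 (3.69), Fabp3 (2.93), Pdk4 (2.07) and Kcnk3 (1.35) rose and Cox8b (-0.98) fell, while Ucp1 (-0.13), Cidea (0.08) and Cox7a1 (-0.06) were not called. Pan-adipocyte markers summed to 36179 to 41102 and 38684 to 43323 CPM, most of it Fabp4, and of the 5 tested Adipoq alone was called (-0.88). The white adipocyte marker Retn was higher (1.07), with Lep at 0 to 1.03 CPM. Erythroid markers summed to 14978 to 28127 CPM in control and 16325 to 22519 CPM in cold libraries, and none of the 4 tested was called. Endothelial markers stayed at or under 25.7 CPM in sum. Macrophage markers stayed at or under 10.8 CPM in sum, with Cd68, Adgre1, Csf1r and Ptprc at 0, and fibroblast markers at or under 22.1 CPM, with Col1a1, Col3a1 and Pdgfra at 0. Skeletal muscle markers summed to 166 to 995 CPM in control and 203 to 12512 CPM in cold libraries, highest in cold 15 and lowest among cold libraries in cold 4. None of the 7 tested muscle markers was called, and their part in the results below was not tested. In RNA of whole tissue, fewer cells of a type and less RNA per cell cannot be told apart.

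Cold exposure went with mixed and mostly small changes of the complex I genes. Among the 42 tested, 8 were lower and 3 higher in the cold by edgeR's quasi-likelihood test at a Benjamini-Hochberg adjusted p under 0.05. The 8 lower make 19.0% of the tested members, and 15.1% of the 2093 tested genes were lower. The 3 higher make 7.14%, and 18.1% of all tested genes were higher. In either direction 26.2% of the members and 33.2% of all tested genes were called. The lower group was Ndufaf5, Ndufa7, Ndufv3, Ndufb8, Ndufs8, Ndufb10, Ndufa10 and Ndufs5, and the higher group Ndufaf4, Ndufa5 and Ndufs7. With no filter on low counts, which left 8129 genes in the fit, the calls of Ndufa10 (-0.41), Ndufb10 (-0.48), Ndufs5 (-0.37), Ndufs8 (-0.57) and Ndufv3 (-0.60) were lost. That of Ndufv3 was also lost with scaling by library totals (-0.65). Without cold 4 the counts were 2 lower and 2 higher, without cold 11 they were 3 and 2, and without control 2 they were 7 and 5. Without cold 15, the library with the most muscle reads, 6 were lower and 2 higher.

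The sign of the change was negative in 31 of the 42 and positive in 11. Their median log2 change, cold minus control, was -0.17, beside 0.04 over all tested genes. A change of at least 1 on the log2 scale was seen in 3 members, Ndufaf5, Ndufaf4 and Ndufa5, while 26.9% of all tested genes moved that far. The median standard error of a member's log2 change was 0.19, against 0.29 over all tested genes. Of the 31 members not called, 27 had a 95% interval wholly between -1 and 1. The other four, Ndufa13, Ndufa3, Ndufaf1 and Ndufb5, had intervals that reached beyond these bounds.

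**Figure D1:**
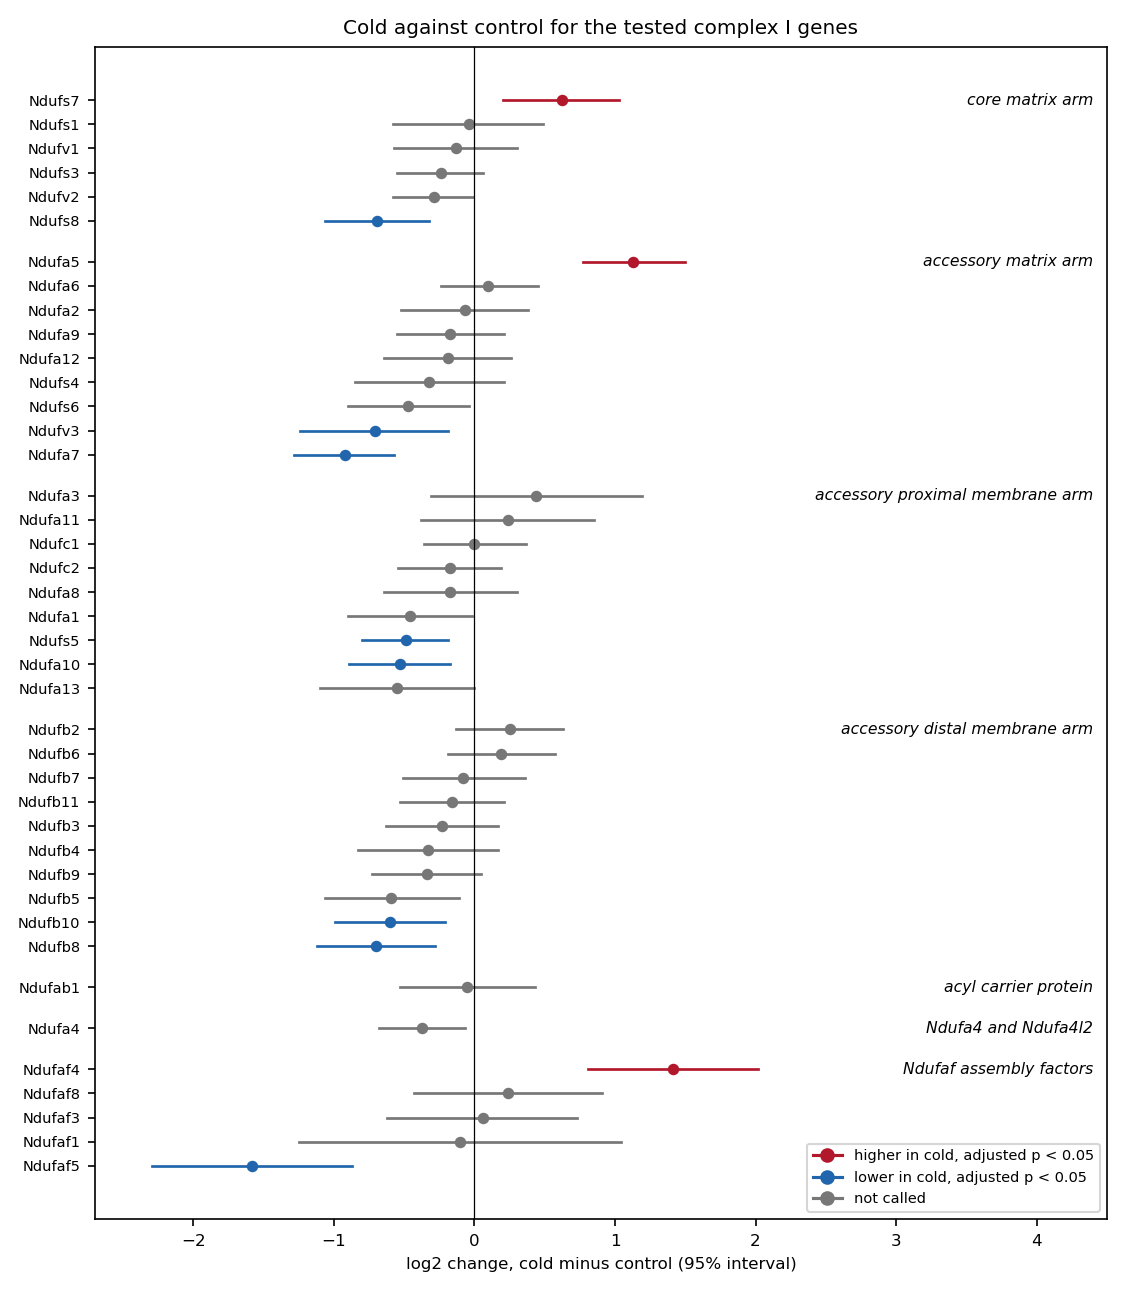
Log2 change in the cold (horizontal axis, cold minus control) of 41 of the tested complex I genes, grouped by role, with 95% intervals from the edgeR test over 3 control and 3 cold libraries. Most points lie between -0.59 and 0.44 in grey, and the called genes stand out at -1.58 for Ndufaf5 and 1.41 for Ndufaf4.

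All cold libraries lay below all control libraries in 15 members (35.7%), beside 21.8% of all tested genes, and above them in 3 members (7.14%), beside 26.0%. The remaining 24 members overlapped between the groups. Each of the 11 called members was separated in this way. So were 7 members not called, which were Ndufa1, Ndufa4, Ndufb3, Ndufb5, Ndufs3, Ndufs6 and Ndufv2, all of them lower in each cold library.

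The reads on all 46 members made up 6.08%, 4.44% and 4.60% of the reads of controls 2, 9 and 14. They made up 4.79%, 4.39% and 4.85% in cold 4, 11 and 15. The groups overlapped, and control 2 lay above all other libraries. The mean share was 5.04% ± 0.907 (SD, n = 3) in control and 4.68% ± 0.252 in cold, a difference of -0.364 percentage points that was not tested. Without control 2 the difference was 0.158, so its sign rests on that library.

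The 7 nuclear core subunits of the matrix arm carry the flavin and the iron-sulfur clusters. Of these, 1 was lower, 1 higher and 5 not called, with a median log2 change of -0.13. Ndufs8 (chr19:3908863-3912774, minus strand, GRCm38 here and below) holds a pair of iron-sulfur clusters on the path to ubiquinone. Its level was 619.9, 635 and 608 CPM in controls 2, 9 and 14 and 355, 384 and 415 CPM in cold 4, 11 and 15. The control libraries were close to each other, and every cold library lay well below them. It fell by 0.69 ± 0.17 on the log2 scale, 1.61-fold, with adjusted p = 0.00896.

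Ndufs7 (chr10:80249121-80256794, plus strand) carries the last iron-sulfur cluster before ubiquinone and lies next to Ndufs8 in the arm. It stood at 921, 647 and 641 CPM in controls and at 1075, 1069.8 and 1242 CPM in cold libraries. Control 2 was nearest to the cold group, and the groups did not overlap. Ndufs7 rose by 0.62 ± 0.19 on the log2 scale, 1.53-fold, with adjusted p = 0.0274. That call was lost when control 9, control 14, cold 4, cold 11 or cold 15 was left out, with changes between 0.49 and 0.80 over all such fits. The call of Ndufs8 was lost without cold 4, and its change ranged from -0.74 to -0.66 over the same fits.

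The other core subunits were not called. Ndufv2, an iron-sulfur protein beside the flavin, read 3863, 3717 and 3642 CPM in controls and 3061, 3143 and 2942 CPM in cold libraries, a complete separation with a log2 difference of -0.29 ± 0.13 and adjusted p = 0.104. Ndufs3, part of the ubiquinone module, was also separated, at 2171, 2097 and 2331 CPM against 1920.1, 1902 and 1749 CPM (log2 difference -0.24 ± 0.14). Ndufv1, which binds NADH and the flavin, differed by -0.13 ± 0.20. Ndufs1, the largest core subunit, had 58.4 to 98.6 CPM in every library and differed by -0.04 ± 0.24. The groups overlapped for both of these genes.

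Accessory subunits of the matrix arm numbered 9, of which 2 were lower, 1 higher and 6 not called, with a median of -0.19. Ndufa5 (chr6:24518666-24528013, minus strand), which binds to the ubiquinone module, was the subunit with the largest rise. It stood at 606, 525 and 556 CPM in controls and at 1353, 1091 and 1256 CPM in cold libraries. No control library came near the cold group, and the lowest cold library was cold 11. The rise was 1.13 ± 0.16 on the log2 scale (lower end of the 95% interval 0.77), 2.19-fold, with adjusted p = 5.2e-04.

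Ndufa7 (chr17:33824572-33838317, plus strand), another small subunit of the matrix arm, moved the other way. Its level was 3874, 3332 and 2714 CPM in controls and 1827, 1743 and 1662 CPM in cold libraries. The cold libraries lay close together and the controls were spread out above them. Ndufa7 fell by 0.92 ± 0.16 on the log2 scale (95% interval -1.28 to -0.57), 1.90-fold, with adjusted p = 0.00158. The calls of Ndufa5 and Ndufa7 held in every alternative processing and without each library in turn.

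Ndufv3 (chr17:31520115-31531331, plus strand), a small protein attached to the flavin subunits, stood at 415, 231 and 282 CPM in controls and at 199, 172 and 196 CPM in cold libraries. The groups did not overlap, and control 2 was far above the rest. It fell by 0.71 ± 0.24 on the log2 scale, with adjusted p = 0.0386. Leaving out control 2, control 14, cold 4, cold 11 or cold 15 ended the call, and the change then ranged from -0.92 to -0.45 over all 6 such fits.

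Ndufs6, a zinc-binding subunit added late in assembly, came near the threshold. It read 486, 344 and 362 CPM in controls and 295, 274 and 294 CPM in cold libraries. Each cold library was below each control, with a log2 difference of -0.47 ± 0.19 and adjusted p = 0.0886. Ndufs4, known for the severe mitochondrial disease caused by its loss, differed by -0.32 ± 0.24 with overlapping groups. Ndufa9, a nucleotide-binding protein near the junction of the arms, differed by -0.17 ± 0.17, Ndufa12 by -0.19 ± 0.20 and Ndufa2 by -0.07 ± 0.21. Ndufa6, which holds the acyl carrier protein to the matrix arm, differed by 0.10 ± 0.16.

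The accessory subunits of the proximal membrane arm, the end next to the matrix arm, numbered 9. In this group 2 were lower, none was higher and 7 were not called, with a median of -0.17. Ndufs5 (chr4:123712710-123718202, minus strand) lies on the side of the membrane facing the intermembrane space. It stood at 5704, 4626 and 4761 CPM in controls and at 3586, 3717 and 3421 CPM in cold libraries, with no overlap and a narrow cold group. It fell by 0.49 ± 0.14 on the log2 scale, 1.41-fold, with adjusted p = 0.0196.

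Ndufa10 (chr1:92439010-92473860, minus strand), a relative of nucleoside kinases on the matrix side of the arm, stood at 684, 751 and 796 CPM in controls and at 511, 539 and 493 CPM in cold libraries. The groups were separated and control 2, which was the highest control for many other members, was the lowest here. Ndufa10 fell by 0.53 ± 0.16 on the log2 scale, 1.45-fold, with adjusted p = 0.0277. This call was lost without control 9, control 14, cold 4, cold 11 or cold 15, though the change stayed between -0.60 and -0.50. The call of Ndufs5 was lost without any 1 of the 3 cold libraries, with changes between -0.58 and -0.40, and also when transcript length was fitted.

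Ndufa1, a small membrane subunit, read 1102, 733 and 733 CPM in controls and 654, 559 and 657 CPM in cold libraries. It was separated and not called (log2 difference -0.46 ± 0.20, adjusted p = 0.103). Ndufa13, also known as GRIM-19, had 389 to 761 CPM in controls and 326 to 400.5 CPM in cold libraries, which overlapped (-0.55 ± 0.25, adjusted p = 0.112). Ndufa3 showed the widest interval of any subunit, -0.31 to 1.19. Its controls 9 and 14 had 219.9 and 267 CPM and control 2 had 625 CPM, above the cold range of 408 to 552 CPM. Ndufa8 differed by -0.17 ± 0.21, Ndufa11 by 0.24 ± 0.28, Ndufc1 by 0.00 ± 0.17 and Ndufc2 by -0.17 ± 0.16, all with overlapping groups.

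The distal membrane arm holds the Ndufb subunits, 10 of which were tested. Of these, 2 were lower, none was higher and 8 were not called, with a median of -0.28. Ndufb8 (chr19:44548572-44555440, minus strand), a subunit often used to follow the assembled complex on protein blots, stood at 2841, 1767 and 1952 CPM in controls and at 1331, 1250.2 and 1463 CPM in cold libraries. The groups did not overlap, and control 2 lay far above the other controls. Ndufb8 fell by 0.70 ± 0.19 on the log2 scale, 1.62-fold, with adjusted p = 0.0172.

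Ndufb10 (chr17:24722060-24724478, minus strand), which faces the intermembrane space, stood at 1687, 1371 and 1361 CPM in controls and at 1026, 793 and 1092 CPM in cold libraries. Cold 11 was the lowest and no cold library reached the controls. It fell by 0.60 ± 0.18 on the log2 scale, 1.52-fold, with adjusted p = 0.0238. Both calls were lost without cold 4 and without cold 11. The change of Ndufb8 ranged from -0.87 to -0.48 and that of Ndufb10 from -0.69 to -0.47 over the fits that left out 1 library.

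Ndufb5 lay just outside the threshold. It read 733, 474 and 503 CPM in controls and 351, 342 and 444 CPM in cold libraries. These ranges were separated, with a log2 difference of -0.59 ± 0.22 and adjusted p = 0.0566. Exons of Ndufb5 overlap those of Mrpl47 on the opposite strand by up to 216 bases, and Mrpl47 had 98 reads in all libraries together. Ndufb3 was separated too, at 299, 274 and 247 CPM against 235, 227 and 236 CPM (-0.23 ± 0.18, adjusted p = 0.354).

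Ndufb2 had 7044, 4744 and 5143 CPM in controls and 7026, 5778 and 7311 CPM in cold libraries. Control 2 lay within the cold range and the difference was 0.25 ± 0.17. The other distal subunits overlapped between the groups as well. Ndufb4 differed by -0.33 ± 0.23, Ndufb9 by -0.34 ± 0.18, Ndufb11 by -0.16 ± 0.17 and Ndufb7 by -0.08 ± 0.20, and Ndufb6 by 0.19 ± 0.17. A gene for the remaining distal subunit is annotated as Ndufb1-ps and not as protein-coding, so it is outside the 46. It read 652, 337 and 383 CPM in controls and 298, 306 and 289 CPM in cold libraries (-0.62 ± 0.25, adjusted p = 0.0747).

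Ndufab1, the mitochondrial acyl carrier protein, sits in both arms and also serves fatty acid and iron-sulfur cluster synthesis. It had 907 to 1519 CPM in controls and 932 to 1381 CPM in cold libraries and differed by -0.05 ± 0.22. Ndufa4 was long counted with complex I and is now assigned to cytochrome oxidase. It stood at 2813, 2576 and 2671 CPM in controls and at 2093, 2214 and 1909 CPM in cold libraries. The groups were separated by a clear gap, and the log2 difference of -0.37 ± 0.14 just missed the threshold (adjusted p = 0.0597). Ndufa4l2, its relative, had 21 reads in all and was not tested.

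**Figure D2:**
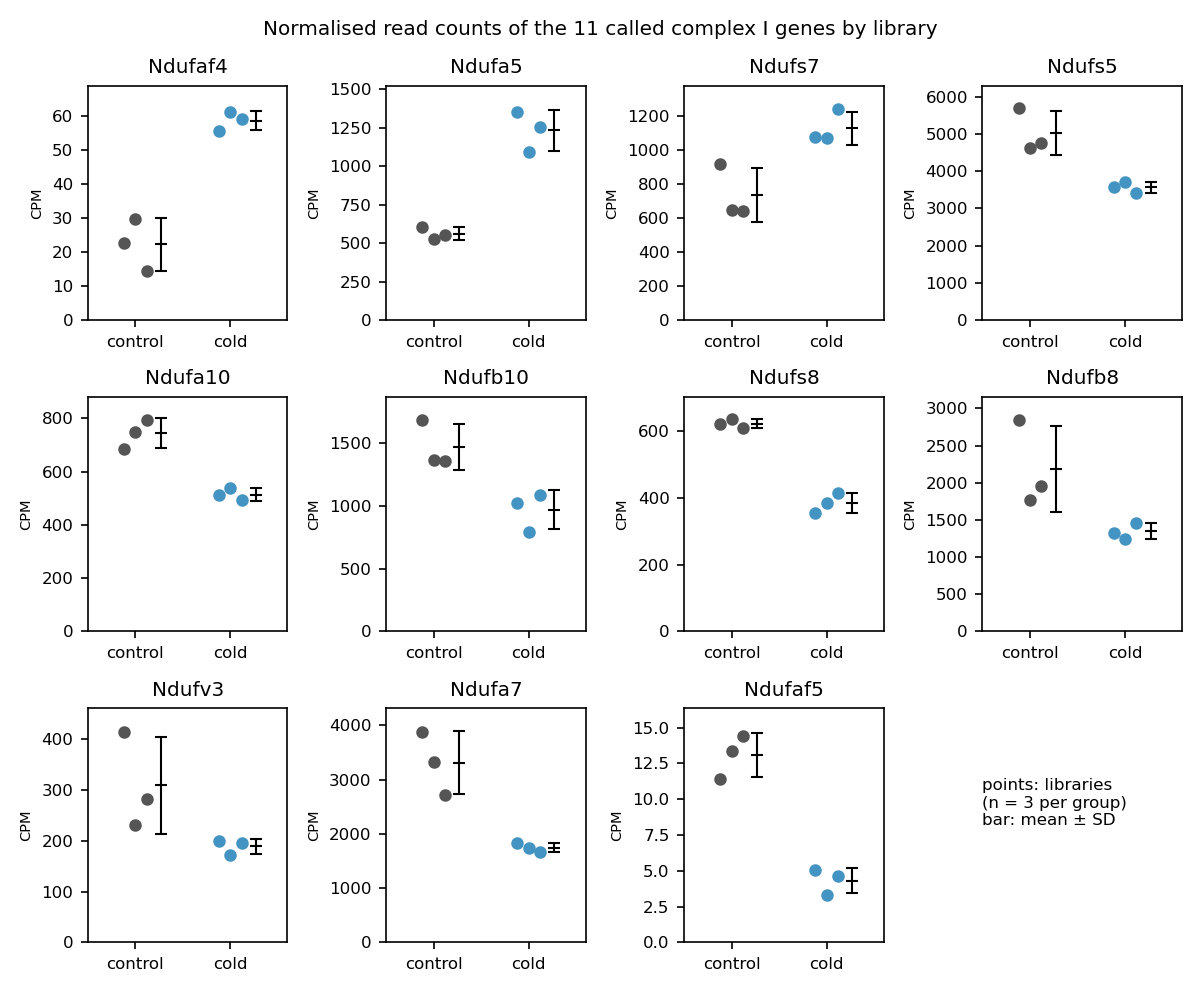
Normalised read counts (vertical axes, CPM from 0) of the 11 called complex I genes, with 1 point per library and bars for the mean ± SD of 3 control or 3 cold libraries. In each panel the cold points lie wholly above or wholly below the control points, as for Ndufa5 at 1091 to 1353 against 525 to 606 CPM.

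The assembly factors build the enzyme without staying in it. Of the 8 Ndufaf genes 5 were tested, with 1 lower, 1 higher and 3 not called. Ndufaf4 (chr4:24898083-24905001, plus strand) works with Ndufaf3 on an early intermediate that holds the ubiquinone module. It stood at 22.7, 29.8 and 14.4 CPM in controls and at 55.4, 60.9 and 59.0 CPM in cold libraries. The cold libraries were close together and the highest control lay far below them. Ndufaf4 rose by 1.41 ± 0.28 on the log2 scale (95% interval 0.81 to 2.02), 2.67-fold, with adjusted p = 0.00278. It rested on 623 reads in all.

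Ndufaf3, its partner, was not called. Its level was 10.3, 7.19 and 10.8 CPM in controls and 9.73, 8.27 and 12.2 CPM in cold libraries, which overlapped (0.06 ± 0.31, adjusted p = 0.918). The difference between the changes of these partners was not tested.

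Ndufaf5 (chr2:140170649-140203689, plus strand) hydroxylates an arginine of Ndufs7. It stood at 11.4, 13.4 and 14.4 CPM in controls and at 5.04, 3.31 and 4.61 CPM in cold libraries. The highest cold library lay well under the lowest control. It fell by 1.58 ± 0.32 on the log2 scale (95% interval -2.29 to -0.87), 2.98-fold, with adjusted p = 0.00377. It rested on 97 reads over all libraries. The call of Ndufaf4 held in every alternative processing and without each library in turn. That of Ndufaf5 held in each of these that could test it, and after thinning to the smallest library it did not pass the count filter.

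Ndufaf8, which acts with Ndufaf5, had 6.17 to 14.6 CPM in controls and 12.6 to 14.1 CPM in cold libraries (0.24 ± 0.31). Ndufaf1, a member of the intermediate that builds the membrane arm, had 1.03 to 10.8 CPM in controls and 4.70 to 7.28 CPM in cold libraries (-0.10 ± 0.52). Its interval of -1.25 to 1.04 shows how little these counts can resolve. Ndufaf2, Ndufaf6 and Ndufaf7 had 7, 2 and 7 reads over all 6 libraries and were not tested.

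Factors that assemble complex I and carry other names were looked at beside them. Of 13 listed genes 12 had reads and 7 were tested, with a median log2 change of 0.36. Ecsit, which joins Ndufaf1 in the intermediate of the membrane arm, stood at 20.0, 29.8 and 51.6 CPM in controls and at 86.3, 71.2 and 66.2 CPM in cold libraries. It rose by 1.14 ± 0.32 on the log2 scale (adjusted p = 0.0189). Dmac1, a factor of the distal membrane arm, stood at 48.1, 24.7 and 43.2 CPM against 18.5, 18.9 and 24.7 CPM and fell by 0.92 ± 0.28 (adjusted p = 0.0279). Control 9 and cold 15 had the same rounded level of Dmac1. Dmac2 differed by 0.93 ± 0.34 (adjusted p = 0.0560), Tmem186 by 0.61 ± 0.25, Tmem70 by 0.36 ± 0.22, Chchd4 by 0.10 ± 0.25 and Foxred1 by -0.20 ± 0.43, none of which was called.

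Reads of the partner genes on mitochondrial DNA were lower as a group. The genome of the mitochondrion encodes 7 core subunits of the membrane arm, of which 6 were tested and all 6 were lower, with a median log2 change of -0.99. mt-Nd4 stood at 2553, 3429 and 2269 CPM in controls and at 976, 989 and 1003 CPM in cold libraries, a fall of -1.47 ± 0.18. The falls of mt-Nd1 (-1.45 ± 0.21), mt-Nd3 (-1.10 ± 0.36), mt-Nd5 (-0.89 ± 0.22), mt-Nd2 (-0.84 ± 0.20) and mt-Nd6 (-0.78 ± 0.21) were called as well. mt-Nd4l had 29 reads and was not tested. Reads of mitochondrial DNA as a whole made up 4.66% to 6.84% of control and 2.36% to 3.16% of cold libraries, so that total moved with these falls, and its part in them was not tested. The cDNA method selects capped molecules, and whether it captures mitochondrial and nuclear transcripts alike was not tested. The 36 nuclear subunits had a median of -0.18, with 7 lower and 2 higher.

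The rest of the nuclear respiratory chain showed mostly small shifts. Complex III had 9 tested genes, none called, and a median of -0.20. Cytochrome oxidase had 12 tested genes, of which 4 were lower (Cox5b, Cox6a1, Cox7b and Cox8b), with a median of -0.38. ATP synthase had 15 tested genes, of which 2 were lower (Atp5d and Atp5k), with a median of -0.08. None of these 3 lists held a gene called higher. Among the enzymes that feed ubiquinone by other routes 9 were tested. Etfa (0.61 ± 0.19) and Etfdh (0.99 ± 0.25), which pass on electrons from fatty acid oxidation, were higher. Sdhc (-0.49 ± 0.15), of succinate dehydrogenase, and Sqor (-2.69 ± 0.25), of sulfide oxidation, were lower.

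**Figure D3:**
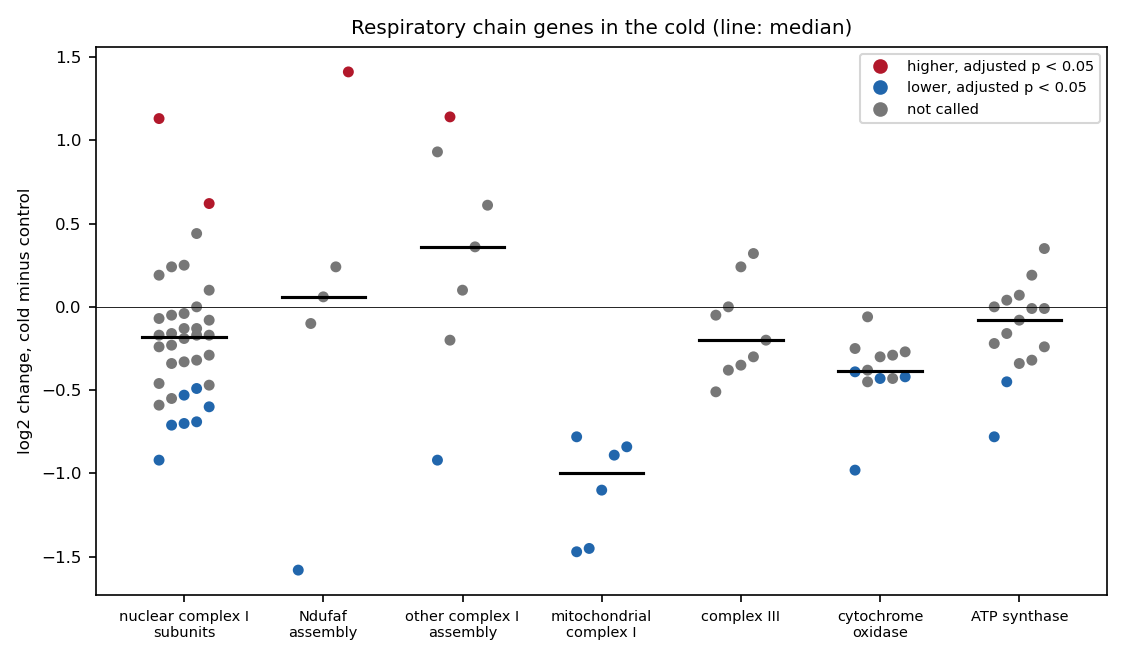
Log2 change in the cold (vertical axis, cold minus control) of each tested gene of the respiratory chain by complex, with 1 point per gene and a line at the median. The 6 mitochondrial complex I genes lie between -1.47 and -0.78, below most nuclear subunits, whose median is -0.18.

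Reads were assigned by the authors to single transcripts, so the forms of each gene could be compared. The members had 171 transcripts with reads, 97 of them annotated as protein-coding, and 91 were tested. In the cold 16 were lower and 4 higher. Of all 2787 tested transcripts 15.3% were lower, 17.4% higher and 32.7% called either way. The 20 called transcripts belonged to 14 genes, 3 of which were not called as genes. These were Ndufb5-201, a form marked for nonsense-mediated decay (-1.05 ± 0.31), the coding form Ndufs6-204 (-0.58 ± 0.20) and Ndufv2-201 (-0.59 ± 0.17).

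In several called genes 1 coding form held most of the reads and changed with the gene. Ndufa5-201 held 92.6% to 94.7% of the reads of its gene in controls and 95.5% to 96.0% in cold libraries, and it rose by 1.16 ± 0.17. Ndufa7-201 held a mean of 94.9% in controls and 93.1% in cold libraries and fell by 0.95 ± 0.17. Ndufa7-202, marked for nonsense-mediated decay, held a mean of 0.720% and 0.530% and was lower too (-1.37 ± 0.28, adjusted p = 0.00274 by edgeR). Ndufb8-201 held at least 98.9% in each library and fell by 0.70 ± 0.19. All reads of Ndufaf5 were on Ndufaf5-201. In Ndufs5 the coding forms Ndufs5-202 and Ndufs5-201 had similar log2 changes of -0.51 ± 0.15 and -0.48 ± 0.16. In Ndufs8 3 coding forms were lower, with log2 changes of -0.70 ± 0.17 for Ndufs8-205, -1.10 ± 0.28 for Ndufs8-204 and -0.88 ± 0.31 for Ndufs8-203. Both tested forms of Ndufa10 were lower, with -0.52 ± 0.17 for the coding Ndufa10-201 and -0.70 ± 0.23 for Ndufa10-207, which is marked for nonsense-mediated decay.

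Several members also have a form that keeps an intron or the first part of one. The junctions below show where these forms leave the coding transcript, with 20 exon bases in lower case and the next 20 bases of the transcript in capitals, 5′ to 3′, from the GENCODE M21 transcripts. These forms were picked from these data because their shares of the reads did not overlap between cold and control libraries, so that gap is no test. How many of all transcripts separate in this way was not counted. The test of usage given below did not call Ndufaf4, Ndufa7 or Ndufb10. The exon ends at chr4:24898302 for Ndufaf4, chr17:33825650 for Ndufa7 and chr17:24722381 for Ndufb10. For Ndufa7-204 the label covers only the first part of the intron. Its annotation ends inside the intron, at chr17:33826123, and lacks the later exons of Ndufa7-201.
Ndufaf4-201, spliced: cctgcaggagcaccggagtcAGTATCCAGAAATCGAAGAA
Ndufaf4-202, intron kept: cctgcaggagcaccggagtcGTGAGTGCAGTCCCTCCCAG
Ndufa7-201, spliced: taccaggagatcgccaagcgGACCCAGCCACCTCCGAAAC
Ndufa7-204, intron kept: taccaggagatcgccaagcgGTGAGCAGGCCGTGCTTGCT
Ndufb10-201, spliced: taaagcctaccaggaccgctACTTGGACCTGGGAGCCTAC
Ndufb10-202, intron kept: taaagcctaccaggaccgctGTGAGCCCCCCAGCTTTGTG

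Ndufaf4-202 keeps the first intron of 270 bases, is annotated with no coding sequence, and held 23.8%, 41.4% and 37.5% of the reads of Ndufaf4 in controls. It held 17.0%, 15.2% and 17.9% in cold libraries. All cold libraries were lower, and control 2 was nearest to them. These shares rest on 9 to 12 reads of Ndufaf4-202 per control library. The coding form Ndufaf4-201 stood at 16.8, 17.6 and 8.98 CPM in controls and at 46.0, 51.6 and 47.8 CPM in cold libraries and rose by 1.76 ± 0.29 (adjusted p = 7.6e-04). The level of Ndufaf4-202 differed by 0.44 ± 0.37 and was not called.

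Ndufa7-204, which runs from the second exon into an intron of 4016 bases, held 3.83%, 3.85% and 3.54% of the reads of Ndufa7 in controls and 6.58%, 4.71% and 6.18% in cold libraries. Every cold share was above every control share, while the level of the form itself differed by -0.29 ± 0.23 and was not called. Ndufb10-202, which keeps an intron of 160 bases, held 32.4%, 30.6% and 33.4% in controls and 25.8%, 28.2% and 28.3% in cold libraries. Here each cold share was below each control share, and the level of the form fell by 0.84 ± 0.20 (adjusted p = 0.00646). The coding form Ndufb10-201 differed by -0.51 ± 0.18 and lay at the threshold (adjusted p = 0.0501).

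Shares of coding forms are given for 4 other members. Neither these nor Ndufaf4, Ndufa7 and Ndufb10 passed a test of usage. Ndufb2-202 held 22.0%, 22.1% and 22.4% of the reads of Ndufb2 in controls and 16.8%, 17.3% and 16.7% in cold libraries. The spread within each group was under 1 percentage point and the gap between the groups was many times larger. Ndufb2-205 moved the other way, at 76.1% to 76.3% in controls and 80.9% to 81.6% in cold libraries. Both forms have the same coding length of 315 bases, and they differ mainly in the last exon, annotated with 80 bases in Ndufb2-202 and 3991 bases in Ndufb2-205.

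Ndufs7-201 held 13.0% to 14.3% of its gene in controls and 16.0% to 16.6% in cold libraries, against Ndufs7-202 with an added noncoding first exon of 84 bases. Ndufv2-201, whose annotated coding sequence of 456 bases is shorter than the 744 bases of Ndufv2-203, held 15.4% to 16.7% in controls and 12.9% to 13.1% in cold libraries. Ndufv3-201 has an added coding exon of 1092 bases. Its shares overlapped, at 11.2%, 20.0% and 16.2% in controls and 20.2%, 28.1% and 17.5% in cold libraries. The short form Ndufv3-202 fell by 0.84 ± 0.26 (adjusted p = 0.0259).

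The test of transcript usage called none of the members. Of the 27 member genes with at least 2 tested transcripts, diffSpliceDGE of edgeR called 0 and found 1 at an unadjusted p under 0.05, beside 1.48% called of 539 genes. The gene-wise F test of the same function called 0, with 3 at an unadjusted p under 0.05. A limma fit of the logit shares, added after these values had been seen, also called 0 of the 27 and 1.48% of the 539, with 9 at an unadjusted p under 0.05. Its smallest adjusted p among the members was 0.0923, for Ndufb2.

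**Figure D4:**
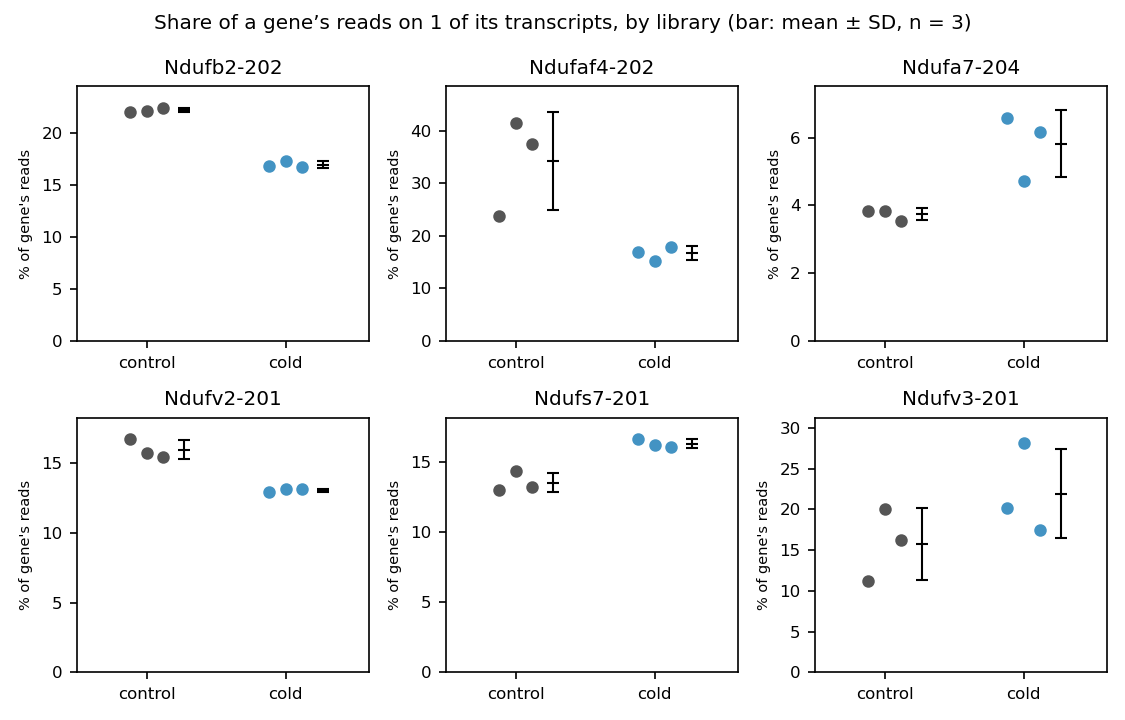
Percentage of the reads of a gene on 1 of its transcripts (vertical axes, percent from 0), with 1 point per library and bars for the mean ± SD of 3 control or 3 cold libraries. The cold points of Ndufb2-202 lie at 16.7% to 17.3%, below the controls at 22.0% to 22.4%, and those of Ndufv3-201 overlap the controls.

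Promoter windows of RefSeq on GRCm38.p6, from 250 bases before to 50 after the annotated start, were matched by symbol for 40 of the 46 members, all 11 called ones among them. The windows were searched on both strands for motifs of factors known to act on nuclear mitochondrial genes. The full NRF1 motif, a palindrome set in capitals in the Ndufaf4 bases printed here, was found in 7.5% of the members with a window and in 1.07% of all 27025 genes with one, or 0.971% of 32851 windows. The 3 members with it were Ndufaf4, Ndufaf5 and Ndufa11, of which Ndufaf4 was higher, Ndufaf5 lower and Ndufa11 not called. Its core GCATGC, which overlaps it, was found in 12.5% of members and 8.93% of genes (7.93% of windows). The ERR site AAGGTCA was found in 7.5% of members and 5.38% of genes (4.72% of windows), in Ndufb2, Ndufb4 and Ndufs5. The YY1 motif AAGATGGC was found in 20% of members, or 8 genes, and 3.19% of all genes (2.75% of windows). The ETS motif CCGGAAG was found in 15% of members and 9.93% of genes (8.86% of windows).

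Of the 8 members with a YY1 match, Ndufb8 was lower, Ndufs7 higher and 6 were not called. Of the 6 with an ETS match, Ndufs8 was lower and 5 were not called. Bases before the start of a higher and a lower gene are shown to place such matches, with the match in capitals. The first is Ndufaf4 at chr4:24897833-24898082 on the plus strand, with the NRF1 motif. The next is Ndufs5 at chr4:123718203-123718436 on the minus strand, with the ERR site read on the other strand as TGACCTT.
Ndufaf4: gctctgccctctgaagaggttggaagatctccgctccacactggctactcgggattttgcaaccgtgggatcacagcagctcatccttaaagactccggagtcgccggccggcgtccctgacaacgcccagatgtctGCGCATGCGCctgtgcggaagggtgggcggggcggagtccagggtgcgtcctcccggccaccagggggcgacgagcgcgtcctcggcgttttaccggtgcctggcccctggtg
Ndufs5: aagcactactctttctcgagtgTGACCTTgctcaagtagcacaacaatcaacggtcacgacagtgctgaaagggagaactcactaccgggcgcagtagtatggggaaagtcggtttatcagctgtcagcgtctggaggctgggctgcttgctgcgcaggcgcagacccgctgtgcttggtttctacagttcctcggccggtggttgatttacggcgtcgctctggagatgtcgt

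Messages of complex I subunits are short, and the change in the cold moved with length over all genes. The read-weighted annotated length of the tested members had a median of 884 nucleotides, against 1717 over all tested genes. Over all tested genes the median log2 change rose in steps from -0.41 under 500 nucleotides to 0.24 at 2000 nucleotides and above. Below 1000 nucleotides 6 of 24 members were lower, with a median of -0.20, beside 21.3% and -0.20 for the 431 tested genes of that length. At 1000 nucleotides and above 2 of 18 members were lower, with a median of -0.15, beside 13.5% and 0.11 for 1662 genes. With a smooth function of length added as an offset, 9 members were lower and 6 higher, and the median was -0.13. Ndufa3 (0.81), Ndufa11 (0.53) and Ndufb6 (0.42) were then called higher and Ndufb5 (-0.49) and Ndufv2 (-0.35) lower, while the call of Ndufs5 (-0.24) was lost.

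**Figure D5:**
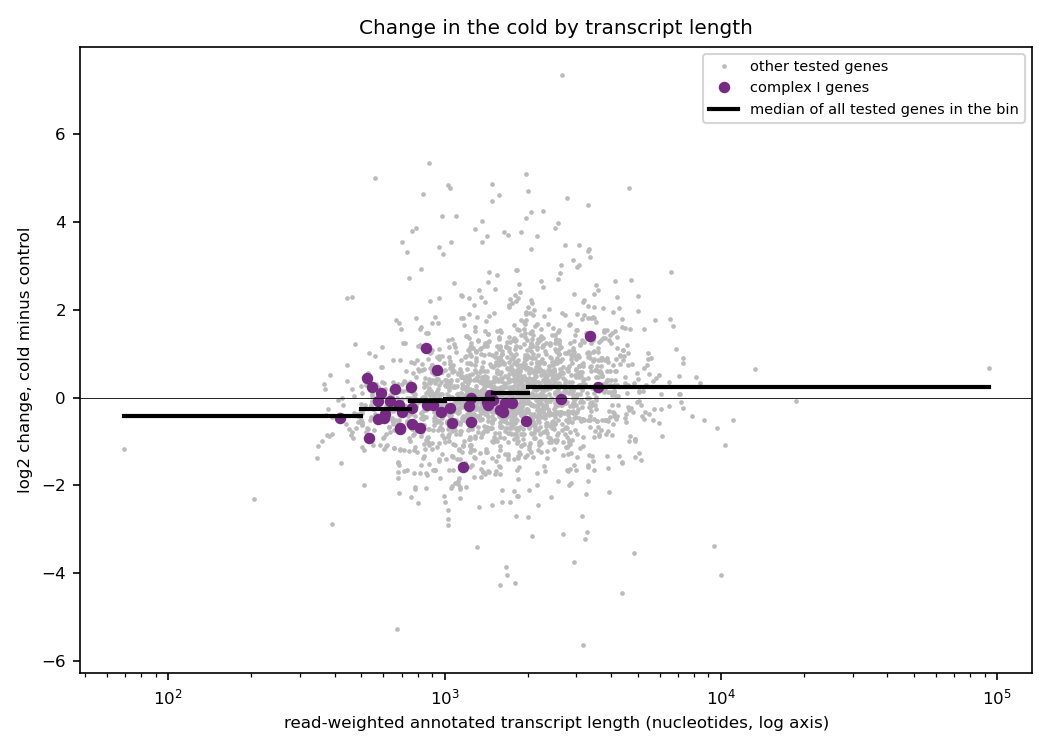
Log2 change in the cold (vertical axis, cold minus control) of all 2093 tested genes against the read-weighted annotated length of their transcripts (horizontal log axis, nucleotides), with complex I genes in purple and a line at the median of all genes in each length bin. The bin medians climb from -0.41 to 0.24. Under 1000 nucleotides lie 24 complex I genes, with a median of -0.20, the same as for all tested genes of that length. The 18 complex I genes at 1000 nucleotides and above have a median of -0.15, beside 0.11 for all tested genes of that length.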

How the data were processed

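The deposited files hold raw read counts per Ensembl transcript and flow cell, 12 files for 6 libraries, with no normalization by the authors. The submitters' processing notes name minimap2 and GRCm38. The rule for reads that match several transcripts is not stated there. The labels name TeloPrime cDNA amplification, which selects capped molecules, and no molecular identifiers, so the number of molecules behind a read count is not known. The floors rest on read counts alone, and the intervals on the variation between libraries that edgeR estimated.

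Transcripts were joined to GENCODE M21 without version (14671 of 14693 identifiers), and counts were summed over both flow cells and over all transcripts of a gene. Cold was compared with control, 3 mice each, with edgeR 4.0.16 (filterByExpr at a minimum count of 10, TMM, robust quasi-likelihood F test, Benjamini-Hochberg over all tested genes, called at adjusted p under 0.05). Standard errors are worked back from the log2 change and F. Transcript usage was tested with diffSpliceDGE and limma 3.58.1, and DESeq2 1.42.0 was an alternative. The scripts were tested on simulated data. Members were named with values in every library for called genes, and 1 tested member, which enters the counts and medians, is not reported here by name. The members and lists were chosen with earlier results of these data known. Copies of at least 95% identity were sought with blastn 2.17.0, and none with more than 1 read was found.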

Additional observations from a re-analysis of the deposited data

How the results depend on the processing

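Across scaling by library totals, DESeq2, thinning to the smallest library, each flow cell alone, protein-coding transcripts alone and identifiers with version, 7 to 10 members were lower and 3 higher. Without the count filter 3 were lower and the median log2 change of the members was -0.06, beside 0.30 for all genes. With the length offset 6 were higher. Leaving out 1 library gave 2 to 9 lower and 2 to 5 higher members, a median of -0.30 to -0.16, 0 to 0 members with changed usage, and a share difference of -0.665 to 0.158 percentage points. There were 2 lower members without cold 4, 3 without cold 11, and 5 higher without control 2. The cause was not tested. Signs turned only in members not called. They included Ndufa2 (0.04 without the filter, 0.22 with the length offset), Ndufab1 (0.01 with library totals, 0.06 without the filter), Ndufaf1 (0.03 without the filter), Ndufaf3 (-0.03 when thinned, -0.35 on flow cell 2), Ndufb2 (-0.07 with the length offset), Ndufb7 (0.04 without the filter, 0.18 with the length offset), Ndufc1 (-0.05 by DESeq2, -0.01 when thinned, on each flow cell and with coding transcripts), Ndufc2 (0.04 with the length offset) and Ndufs1 (0.03 with library totals, 0.09 without the filter, 0.02 on flow cell 1). Leaving out 1 library turned the sign of Ndufa11 (-0.03 to 0.54), Ndufa2 (-0.25 to 0.21), Ndufab1 (-0.25 to 0.16), Ndufaf1 (-0.49 to 0.69), Ndufaf3 (-0.10 to 0.19), Ndufaf8 (-0.02 to 0.49), Ndufb7 (-0.23 to 0.17), Ndufc1 (-0.13 to 0.15), Ndufs1 (-0.26 to 0.06) and Ndufv1 (-0.27 to 0.05). Low counts kept Ndufaf5 out of the thinned fit, and Ndufaf1 out of the thinned fit, both fits of 1 flow cell and the fit without cold 11. No paired analysis was possible because the groups share no mouse number. Depth limits the assembly factors most, at 97 reads for Ndufaf5 and under 10 for Ndufaf2, Ndufaf6 and Ndufaf7.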
